A study of Homo sapiens with 4 samples.

Results

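The protein components of the spliceosome were followed as a set of 60 protein-coding genes, taken by symbol from the 28814 rows of the deposited count table. The rule took the SNRP, SNRNP, SF3A, SF3B, PRPF, U2AF and CWC symbols, LSM1 to LSM8, BUD13, BUD31, SART1 and SART3, and used no measured value. All 60 passed the filter on low counts, which left 16862 genes for testing, 12639 of them protein-coding. The member with the fewest reads, U2AF1L4, had 151 over all libraries. The cells were 697, a cultured line of human B-cell precursor acute lymphoblastic leukaemia. They received 1 µM MZ1 or an equal volume of its solvent DMSO for 24 h, with 2 libraries per group and no other agent or genetic change named. MZ1 is a bivalent degrader: one end binds the bromodomains of BET proteins, the other recruits the VHL ubiquitin ligase. All results therefore describe 1 cell line, 1 dose and 1 time. They are RNA levels of genes, and names of rings, particles and proteins below stand for the transcripts of their genes. Protein levels, snRNP particles and splicing itself were not measured here.

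The spliceosome removes introns in steps carried out by small nuclear ribonucleoproteins (snRNPs), each an RNA with its own proteins. U1, U2, U4 and U5 RNAs carry a ring of Sm proteins, which the SMN complex loads in the cytoplasm. U6 carries a related ring of LSm proteins. U1 recognises the start of an intron, and U2 with the U2AF proteins recognises its end. U4/U6 and U5 then join as a tri-snRNP, and the PRP19 complex and catalytic-step factors complete the active site. A separate minor spliceosome, with U11 and U12 in place of U1 and U2, handles a small class of introns. Cells driven by MYC are known to depend on a full supply of core splicing factors.

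With MZ1, transcripts of most spliceosome proteins were lower, and by median log2 fold change the Sm and LSm rings that hold the snRNAs were lowest relative to DMSO. Of the 60 genes, 41 fell, 11 rose and 8 were not called (edgeR quasi-likelihood test, Benjamini-Hochberg adjusted p below 0.05 over all tested genes). Of all tested genes, 41.3% were called lower and 42.8% higher, and of the coding genes among them, 48.8% lower and 38.5% higher. Tested coding genes were also divided into 4 equal bins by level with DMSO. The highest bin held 36 members, 27 lower and 6 higher, and 62.7% of its coding genes were lower and 30.8% higher. The median log2 fold change of MZ1 over DMSO was −0.69 over the 60 genes, −0.20 over tested coding genes and 0.047 over all tested genes. A fall of at least 2-fold was found for 25 members, and a rise of that size for LSM8 and PRPF39 alone. Among all tested genes, 26.2% fell and 29.0% rose by that much, and among tested coding genes 29.9% and 22.2%. The MZ1 and DMSO libraries did not overlap for 55 members, or 91.7%, against 91.3% of all tested genes and 93.3% of tested coding genes. Separation by itself thus did not set the members apart. Of all tested genes 84.2% were called in either direction, so sizes and directions say more here than the number of calls.

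Members that fell outnumbered those that rose under every scaling tried, but the split moved with it. Upper-quartile scaling raised log2 fold changes by a median of 0.27, and a stricter count filter raised them by 0.16. Under upper-quartile scaling 37 members fell and 18 rose, beside backgrounds of 34.9% lower and 49.2% higher. Risen members were 32.7% of those called with that scaling and 21.2% with trimmed means. The summed level of all 60 genes was 6587 ± 8.99 CPM with MZ1 and 8723 ± 2.80 CPM with DMSO (SD, n = 2 each), 1.32-fold lower. Summed levels here and below use trimmed-mean scaling alone, and their SDs do not cover the choice of scaling. CPM are counts scaled to a common library total after trimmed-mean normalisation, and the labels name no added standard. Fewer cells with a transcript and less of it per cell cannot be told apart in such bulk RNA.

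**Figure D1:**
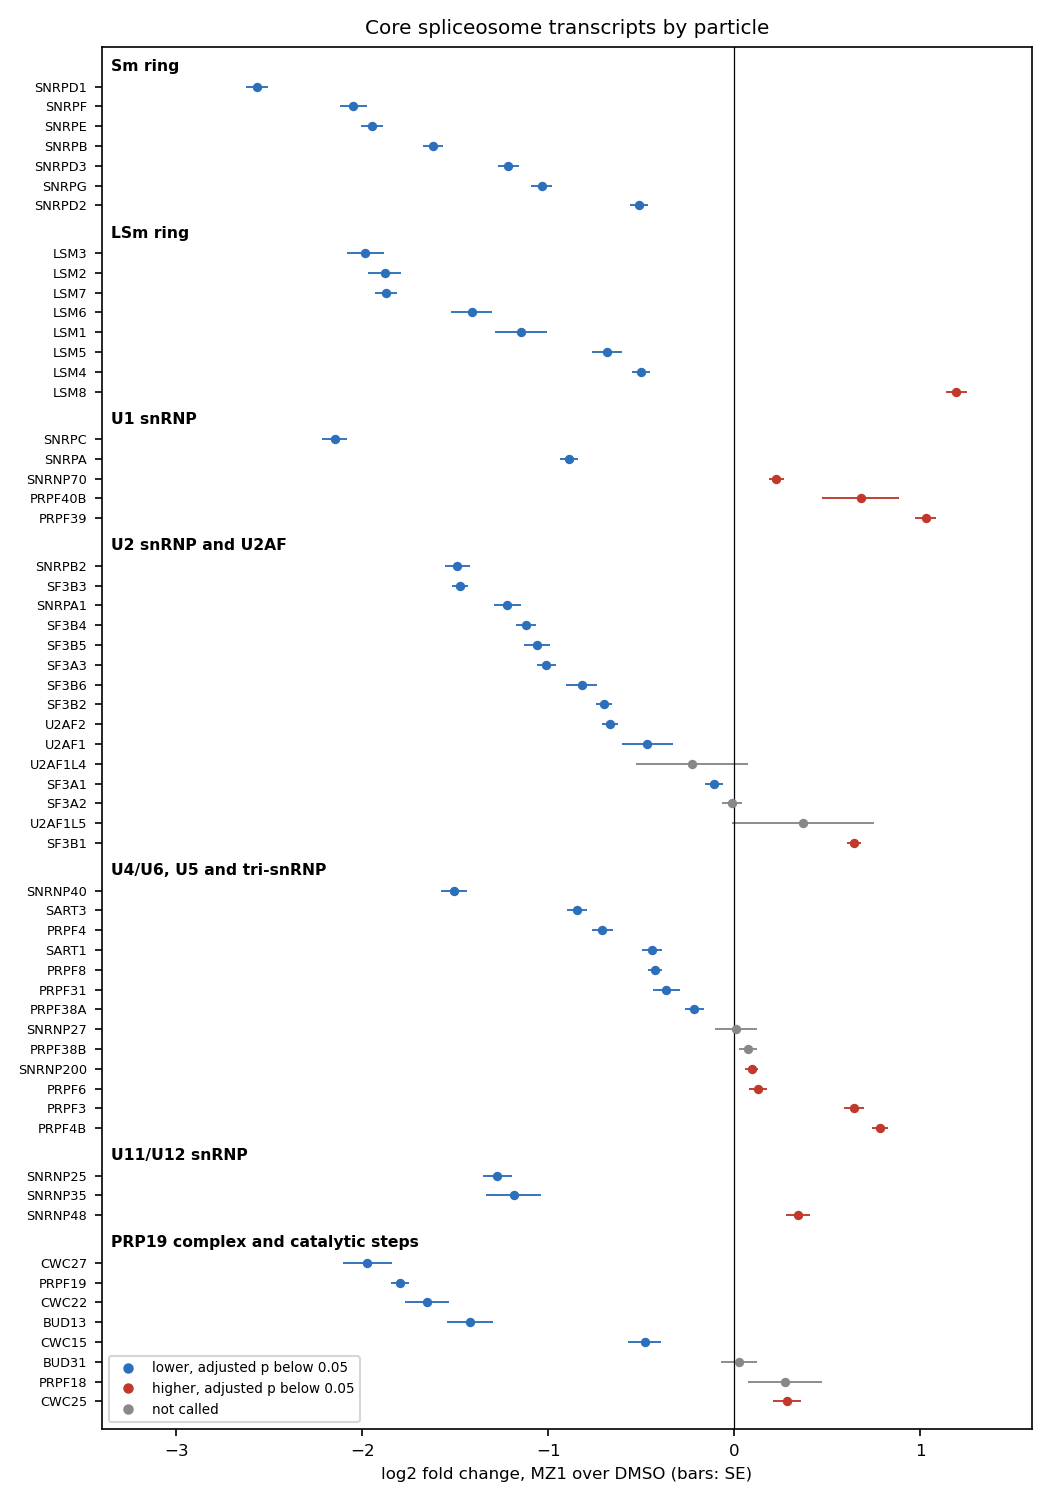
Log2 fold change of MZ1 over DMSO for 59 of the 60 genes, grouped by particle, with bars of 1 standard error. Genes that fell are blue, genes that rose red and genes not called grey. All 7 Sm genes lie below 0, while the U1 and tri-snRNP groups hold genes on both sides.

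The libraries held 14544789 and 14246367 counted reads with MZ1 and 16005427 and 16488005 with DMSO. As a check of the labels, MYC fell by 6.45 on the log2 scale and HEXIM1, a transcript known to increase when BET proteins are blocked, rose by 1.44. Mitochondrially encoded genes took 9.12 ± 0.20% of counts with MZ1 and 5.65 ± 0.24% with DMSO (SD, n = 2 each). All 10 listed B-cell precursor markers had rows, and their sum was 1156 and 1221 CPM with MZ1, against 3872 and 3881 CPM with DMSO. Of 5 myeloid markers 4 had rows, summing to 27.3 and 24.1 CPM with MZ1 and to 1.04 and 0.649 CPM with DMSO. Of 6 T cell markers 2 had rows and went opposite ways: CD8A had 4.10 and 3.83 CPM with MZ1 and 0.672 and 0.472 CPM with DMSO, and TRAC had 0 reads with MZ1 and 6.96 and 6.90 CPM with DMSO. Of erythroid markers, 3 of 4 had rows, summing to 3.61 and 2.75 CPM with MZ1 and 0.122 and 0.472 CPM with DMSO. The part of these shifts in the splicing results was not tested.

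Promoters were compared because many members moved together. RefSeq promoter windows (GRCh38.p14, 250 bases before to 50 after each start) were matched by symbol for 49 of the 60 genes, in 59 windows. Among the members with no matched window were LSM1, LSM6, PRPF3, PRPF39, PRPF4B, SART3, SF3B3, SNRNP35, SNRPD1 and U2AF1L5. On either strand, CCGGAAG, a core sequence bound by ETS family factors, was present for 25 of 49 members or 51.0%, against 22.3% of 10247 tested coding genes and 12.2% of all 27305 genes in the table. CACGTG, the canonical E-box bound by MYC with MAX, was present for 2 of 49 members or 4.08%, against 12.4% of tested coding genes and 8.77% of all genes. CCAAT, bound by NF-Y, was about as frequent in members (42.9%) as in tested coding genes (43.3%) and in all genes (39.7%). Each motif was counted on its own, and a match is a description of the sequence, not a bound site.

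The 6 stretches below show the E-box and CCGGAAG matches beside members of either direction. Each is the 150 bases before the RefSeq start, 5′ to 3′ on the gene's strand in GRCh38.p14. SNRPG (chr2:70293459-70293608, minus strand) and BUD13 (chr11:116772988-116773137, minus strand) fell. SNRNP200 (chr2:96305547-96305696, minus strand) and PRPF6 (chr20:63980982-63981131, plus strand) were marginally higher. SF3B1 (chr2:197435094-197435243, minus strand) and SNRNP48 (chr6:7590048-7590197, plus strand) are the members with an E-box, and both rose. Capitals mark the motif, with CTTCCGG being CCGGAAG read on the other strand.
SNRPG: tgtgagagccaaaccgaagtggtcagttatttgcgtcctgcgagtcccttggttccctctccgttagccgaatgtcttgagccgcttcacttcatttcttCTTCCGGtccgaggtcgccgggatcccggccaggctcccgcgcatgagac
BUD13: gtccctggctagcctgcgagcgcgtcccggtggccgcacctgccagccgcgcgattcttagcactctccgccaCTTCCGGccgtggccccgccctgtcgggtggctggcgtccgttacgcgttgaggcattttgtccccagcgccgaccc
SNRNP200: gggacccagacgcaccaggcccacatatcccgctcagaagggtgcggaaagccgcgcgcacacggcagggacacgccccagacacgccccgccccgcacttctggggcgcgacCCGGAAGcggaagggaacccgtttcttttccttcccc
PRPF6: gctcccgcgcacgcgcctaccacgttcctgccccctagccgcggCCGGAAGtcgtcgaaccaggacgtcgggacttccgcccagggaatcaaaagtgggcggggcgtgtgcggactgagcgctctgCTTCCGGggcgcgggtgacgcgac
SF3B1: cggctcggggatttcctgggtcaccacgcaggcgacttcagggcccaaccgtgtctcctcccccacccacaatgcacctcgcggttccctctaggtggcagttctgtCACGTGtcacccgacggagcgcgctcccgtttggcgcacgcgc
SNRNP48: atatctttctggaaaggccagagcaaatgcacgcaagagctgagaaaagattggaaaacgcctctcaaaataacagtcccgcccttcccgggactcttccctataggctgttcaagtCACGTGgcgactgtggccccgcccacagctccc
The match lay 50 bases before the start in SNRPG, 77 in BUD13, 37 in SNRNP200, and 106 and 24 in PRPF6. The E-box lay 43 bases before the start in SF3B1 and 33 in SNRNP48. Direction did not follow CCGGAAG: of 25 members with it 17 fell and 4 rose (median log2 fold change −0.67), and of 24 without it 18 fell and 4 rose (median −0.80). The E-box pair stood opposite to the coding genes with an E-box, whose median log2 fold change was −0.46, against −0.19 for those without. With only 2 genes, this is a description of those genes.

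Transcripts of the Sm ring fell as a whole. The 7 genes of the ring encode the proteins that encircle the U1, U2, U4 and U5 RNAs and protect them, and none rose under any scaling tried. Their summed level was 477 ± 24.1 CPM with MZ1 and 1230 ± 9.62 CPM with DMSO (SD, n = 2 each), a 2.58-fold difference, and their median log2 fold change was −1.62. The falls were uneven, spanning 1.43-fold for SNRPD2 to 5.92-fold for SNRPD1. SNRPD1 (chr18:21612267-21633524, GRCh38) encodes SmD1. Its level was 26.4 and 28.3 CPM with MZ1, against 162 and 161 CPM with DMSO, and it fell by 2.57 ± 0.06 on the log2 scale (SE; edgeR adjusted p = 2.31e-22). Both MZ1 libraries were far below both DMSO libraries. SNRPF, for SmF, had 24.3 and 29.6 CPM with MZ1 and 114 and 108 CPM with DMSO, a log2 fold change of −2.05 ± 0.07 (edgeR adjusted p = 1.34e-18). SNRPE, for SmE, had 48.9 and 56.7 CPM with MZ1 and 201 and 206 CPM with DMSO (−1.95 ± 0.06, edgeR adjusted p = 3.51e-20). SmE, SmF and SmG form 1 of the subcomplexes from which the ring is built, and SNRPG, the third of its genes, fell less.

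SNRPB encodes SmB and its longer form SmB′, and fell 3.07-fold to 75.1 ± 4.52 CPM with MZ1, against 231 ± 0.753 CPM with DMSO (SD, n = 2 each). SNRPD3 fell 2.32-fold and SNRPG fell 2.05-fold. SNRPD2 encodes SmD2, the direct partner of SmD1 in the assembling ring. Its 154 and 168 CPM with MZ1 stood beside 231 and 227 CPM with DMSO. The pair thus differed in size of change although both were lower in each MZ1 library. Per kilobase of exon, the highest Sm gene exceeded the lowest 18.0-fold with MZ1 (SNRPD2 over SNRPD1) and 5.49-fold with DMSO (SNRPB over SNRPD1). SNRPB ranked 1st of the 60 genes per kilobase with DMSO and SNRPD2 2nd. With MZ1 SNRPB was 6th at 58.8 CPM per kb, against 181 with DMSO.

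**Figure D2:**
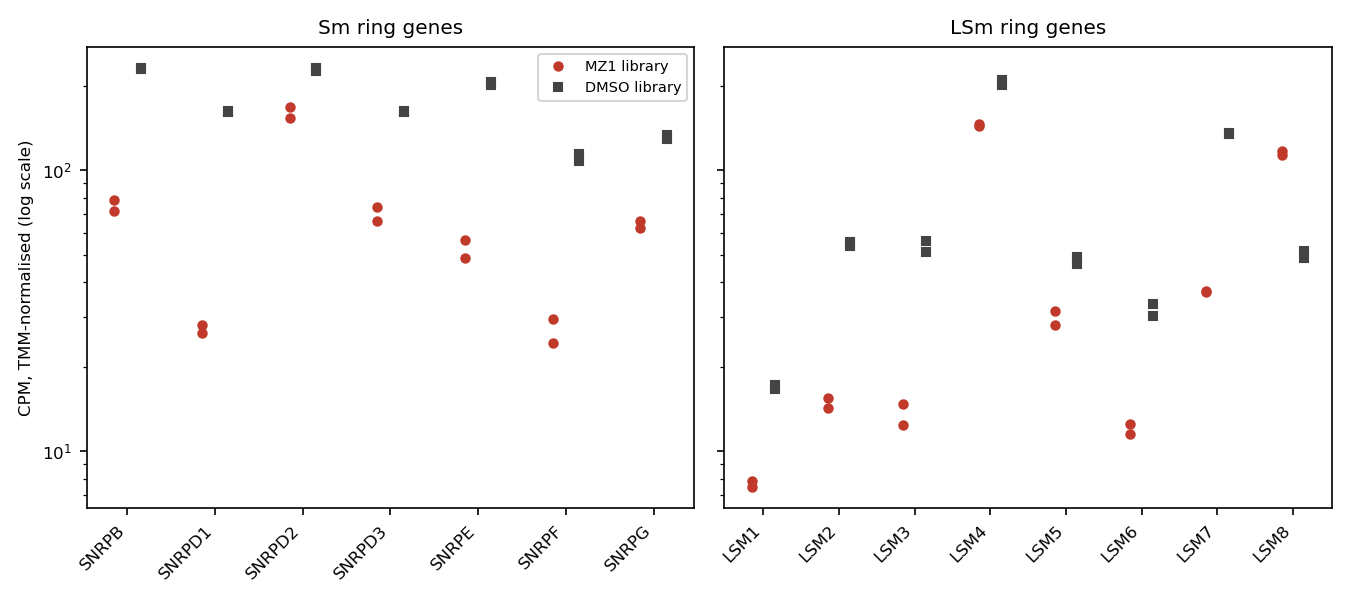
Level in CPM on a log axis of each Sm and LSm gene in every library, MZ1 points left of DMSO points. The MZ1 points of 14 of the 15 genes lie below their DMSO points, and LSM8 is the exception.

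In the LSm ring, transcripts of all genes except LSM8 fell. LSM2 to LSM7 are shared by a nuclear ring on U6 RNA, completed by LSM8, and by a cytoplasmic ring that promotes mRNA decay, completed by LSM1. The genes of the shared subunits and LSM1 fell 1.42-fold to 3.95-fold, and the 8 genes summed to 375 CPM with MZ1 and 596 CPM with DMSO. LSM3 had 14.7 and 12.4 CPM with MZ1, against 51.3 and 56.1 CPM with DMSO (log2 fold change −1.98 ± 0.10, edgeR adjusted p = 8.39e-16). LSM2 had 14.3 and 15.5 CPM with MZ1 and 53.8 and 55.6 CPM with DMSO (−1.88 ± 0.09, edgeR adjusted p = 4.44e-16). LSM7 had 37.1 and 36.8 CPM with MZ1 and 135 and 136 CPM with DMSO (−1.87 ± 0.06, edgeR adjusted p = 5.05e-20). The libraries of the 2 groups were well apart for each of these. LSM6 fell 2.66-fold, LSM5 1.61-fold and LSM4 1.42-fold.

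For the pair of subunits that give each ring its place, transcripts moved in opposite directions. LSM8 (chr7:118184032-118192824) had 113 and 117 CPM with MZ1, against 51.6 and 48.9 CPM with DMSO, and rose by 1.19 ± 0.06 on the log2 scale (edgeR adjusted p = 4.79e-16). LSM1 had 7.85 and 7.44 CPM with MZ1, against 17.2 and 16.7 CPM with DMSO (−1.15 ± 0.14, edgeR adjusted p = 4.45e-08). Annotated exons of LSM1 overlap those of other genes over 38.5% of their length, and strand was not stated for the counting. Per kilobase of exon, LSM8 exceeded LSM1 3.92-fold and 4.27-fold in the MZ1 libraries. In the DMSO libraries the ratio was 0.818 and 0.797. The lengths used, 6210 bases for LSM8 and 1690 for LSM1, join all annotated exons of a gene. Whether the ratio lies above or below 1 therefore depends on the annotation, and in CPM LSM8 was above LSM1 in every library. This ratio and those of SNRNP70 to SNRPC and SF3B1 to SF3B3 were chosen after the values were seen.

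Transcripts of the U1 snRNP proteins were split. The 6 genes summed to nearly the same level, 978 CPM with MZ1 and 1011 CPM with DMSO, while 2 fell, 3 rose and 1 was not called. SNRPC encodes U1-C, which helps U1 hold the 5′ splice site. It had 27.7 and 27.8 CPM with MZ1, against 128 and 118 CPM with DMSO (log2 fold change −2.15 ± 0.07, edgeR adjusted p = 4.79e-20). SNRPA, for U1-A, had 85.2 and 85.1 CPM with MZ1 and 158 in both DMSO libraries (−0.89 ± 0.05, edgeR adjusted p = 1.27e-14). SNRNP70 encodes U1-70K, the third U1-specific protein, and did not follow the pair. Its 535 and 532 CPM with MZ1 were above the 444 and 468 CPM with DMSO (0.23 ± 0.04, edgeR adjusted p = 1.27e-05). Per kilobase, the ratio of SNRNP70 to SNRPC was 5.26 and 5.22 in the MZ1 libraries, and 0.944 and 1.08 in the DMSO libraries.

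Homologues of yeast U1-associated factors made up the rest of this group. PRPF39 (chr14:45084099-45116282) had 114 and 111 CPM with MZ1, against 53.3 and 56.9 CPM with DMSO, and rose by 1.03 ± 0.06 on the log2 scale (edgeR adjusted p = 9.96e-15). PRPF40B had 6.93 and 6.72 CPM with MZ1 and 3.73 and 4.78 CPM with DMSO (0.68 ± 0.21, edgeR adjusted p = 0.00415). That call was lost without DMSO replicate 1 (0.47, edgeR adjusted p = 0.0831) and with DESeq2, and other genes cover 48.7% of its exons.

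Among the U2 proteins and the U2AF dimer, 11 of 15 genes fell and 1 rose, with a median log2 fold change of −0.70. That is 73.3% lower and 6.67% higher, beside 48.8% and 38.5% of tested coding genes. Under upper-quartile scaling 9 fell and 3 rose. SNRPB2 and SNRPA1 encode the U2-B″ and U2-A′ proteins that sit on U2 RNA. SNRPB2 had 35.8 and 40.4 CPM with MZ1, against 113 and 101 CPM with DMSO (−1.49 ± 0.07, edgeR adjusted p = 2.56e-16). SNRPA1 fell 2.33-fold, and annotated pseudogene copies with rows held reads amounting to 10.4% of its own. SF3b binds the branch point region, and its 6 genes that the symbol rule took divided around the largest subunit. SF3B3 (chr16:70523788-70577670) had 159 and 166 CPM with MZ1, against 449.9 and 454 CPM with DMSO (−1.48 ± 0.04, edgeR adjusted p = 1.92e-20). SF3B4 had 63.6 and 60.3 CPM with MZ1 and 134 and 135 CPM with DMSO (−1.12 ± 0.05, edgeR adjusted p = 5.46e-16). SF3B5, SF3B6 and SF3B2 fell 2.08-fold, 1.77-fold and 1.62-fold.

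SF3B1 went the other way. The gene (chr2:197389784-197435091, minus strand) encodes the scaffold that clamps the branch helix and is a recurrent target of mutation in blood cancers. It had 747 and 737 CPM with MZ1, against 475 in both DMSO libraries, and rose by 0.64 ± 0.04 on the log2 scale (edgeR adjusted p = 3.17e-14). Per kilobase it was 6.35-fold and 6.03-fold above SF3B3 in the MZ1 libraries, and 1.43-fold and 1.42-fold above it in the DMSO libraries. Among the 60 genes it moved to rank 3 per kilobase with MZ1, against rank 17 with DMSO.

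SF3a, which joins SF3b on U2, has 3 subunits, and their transcripts changed unequally. SF3A3 fell 2.01-fold to 78.7 ± 0.518 CPM with MZ1, against 159 ± 2.80 CPM with DMSO (SD, n = 2 each). SF3A1 had 177 and 188 CPM with MZ1 and 199 and 195 CPM with DMSO, a fall by 0.11 ± 0.05 on the log2 scale (edgeR adjusted p = 0.0321). This small call was lost without MZ1 replicate 1 (−0.061, edgeR adjusted p = 0.33) and turned to 0.16, called higher, under upper-quartile scaling (edgeR adjusted p = 0.00279). SF3A2 had 138 and 149 CPM with MZ1 and 137 and 152 CPM with DMSO (−0.012 ± 0.054, edgeR adjusted p = 0.843). The groups overlapped, with an approximate 95% interval of −0.12 to 0.094. Without DMSO replicate 1 it was −0.13 and called (edgeR adjusted p = 0.0417). It was called higher under upper-quartile scaling (0.26, edgeR adjusted p = 0.000127) and under the stricter filter (0.15, edgeR adjusted p = 0.0154).

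The U2AF dimer reads the polypyrimidine tract through U2AF2 and the terminal AG through U2AF1. U2AF2 fell 1.59-fold to 277 ± 10.1 CPM with MZ1, against 439.7 ± 16.3 CPM with DMSO (SD, n = 2 each). U2AF1 could not be read on its own, because U2AF1L5 is a near-identical copy on the same chromosome. U2AF1 had 256 and 397 reads with MZ1 and 589 and 487 with DMSO, and U2AF1L5 had 204 and 30 with MZ1 and 116 and 99 with DMSO. When both genes were added, the uneven MZ1 pairs nearly cancelled, to 460 and 427 reads, or 32.5 and 30.9 CPM. The DMSO libraries stayed apart, at 705 and 586 reads, or 43.1 and 34.6 CPM, because both genes were higher in DMSO replicate 1. The sum fell by 0.29 ± 0.09 on the log2 scale (edgeR adjusted p = 0.00654). How reads that align equally to both genes were counted is not known, so the sum may leave some of them out. Taken alone, U2AF1 fell by 0.47 ± 0.14 (edgeR adjusted p = 0.00302), a call lost without MZ1 replicate 1 (−0.17, edgeR adjusted p = 0.17). U2AF1L5 was not called at 0.37 ± 0.38 (edgeR adjusted p = 0.372). It was −1.56 and called lower without MZ1 replicate 1 (edgeR adjusted p = 1.02e-06), and 1.16 and called higher without MZ1 replicate 2 (edgeR adjusted p = 1.21e-08). U2AF1L4, a paralog of low level, had 2.26 and 2.24 CPM with MZ1 and 2.50 and 2.77 CPM with DMSO (−0.23 ± 0.30, edgeR adjusted p = 0.479).

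**Figure D3:**
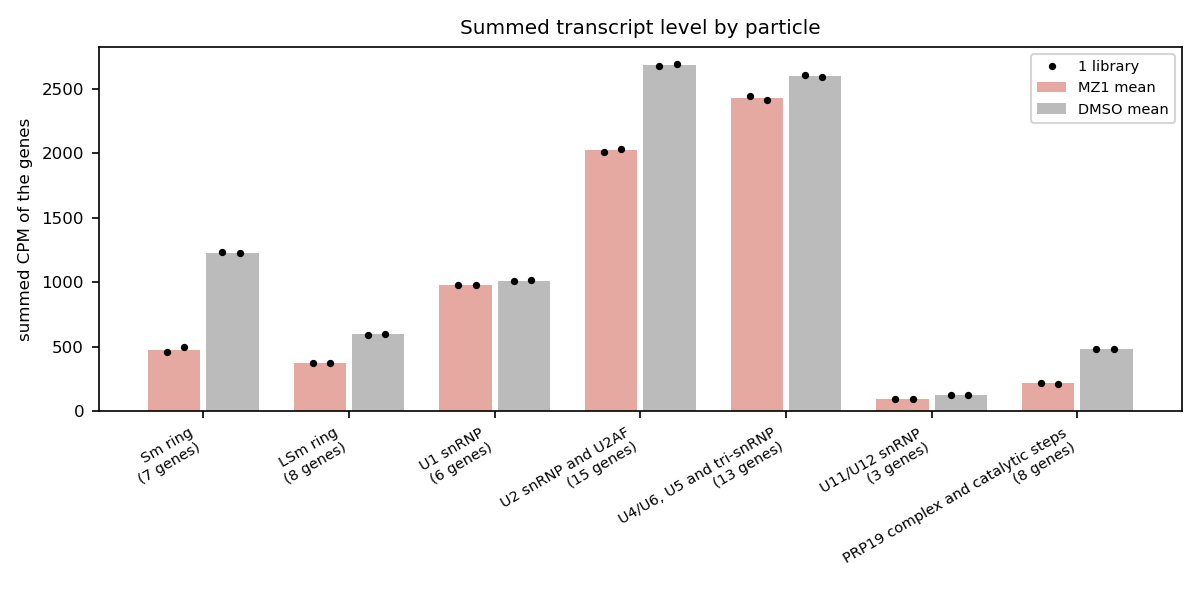
Summed CPM of each particle group, with bars at the mean of 2 libraries (MZ1 red, left of DMSO grey) and a point per library. In proportion, the Sm ring (477 CPM with MZ1, 1230 with DMSO) and the PRP19 group (215 with MZ1, 482 with DMSO) differ most and the U1 group (978 with MZ1, 1011 with DMSO) least.

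Transcripts of the U4/U6, U5 and tri-snRNP proteins summed to similar levels, at 2428 CPM with MZ1 and 2596 CPM with DMSO. Of 13 genes 7 fell, 4 rose and 2 were not called, and the median log2 fold change was −0.22. These shares, 53.8% lower and 30.8% higher, lay near the 48.8% and 38.5% of tested coding genes, whose median was −0.20. As a whole the group was thus not set apart from coding genes. Under upper-quartile scaling 5 fell and 6 rose, so the majority direction of this group rests on the scaling. SNRNP40, a WD-repeat protein of U5, had 29.6 and 27.0 CPM with MZ1, against 80.2 and 80.5 CPM with DMSO (−1.51 ± 0.07, edgeR adjusted p = 3.17e-16). SART3, which recycles U6 into U4/U6, had 62.2 and 62.7 CPM with MZ1 and 114 and 110.3 CPM with DMSO (−0.85 ± 0.05, edgeR adjusted p = 2.26e-13). PRPF4, a U4/U6 protein, had 56.6 and 55.1 CPM with MZ1 and 93.2 and 89.4 CPM with DMSO (−0.71 ± 0.06, edgeR adjusted p = 3.45e-11). PRPF3, its binding partner in the same particle, rose. PRPF3 had 116 and 108 CPM with MZ1, against 71.4 and 72.0 CPM with DMSO (0.64 ± 0.05, edgeR adjusted p = 5.62e-11).

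PRPF4B, a protein kinase that acts on tri-snRNP proteins, gave the largest rise of this group. It (chr6:4021267-4064983) had 312 and 311 CPM with MZ1, against 179 and 183 CPM with DMSO (0.78 ± 0.04, edgeR adjusted p = 9.12e-15). The U5 core is built around PRPF8, which holds the catalytic RNA, and the helicase SNRNP200, which unwinds U4 from U6. PRPF8 fell 1.34-fold to 582 ± 18.3 CPM with MZ1, against 781 ± 3.75 CPM with DMSO (SD, n = 2 each). SNRNP200 had 688 and 678 CPM with MZ1 and 636 and 645 CPM with DMSO (0.093 ± 0.037, edgeR adjusted p = 0.024). PRPF6, which bridges U5 and U4/U6, had 158 and 161 CPM with MZ1 and 148 and 144 CPM with DMSO (0.13 ± 0.05, edgeR adjusted p = 0.0152). Both of these small calls were lost in several refits. SNRNP200 lost its call without MZ1 replicate 1 (0.089, edgeR adjusted p = 0.0708), without DMSO replicate 1 (0.037, edgeR adjusted p = 0.467) and without DMSO replicate 2 (0.063, edgeR adjusted p = 0.204). PRPF6 lost it without MZ1 replicate 2 (0.12, edgeR adjusted p = 0.0704), without DMSO replicate 1 (0.10, edgeR adjusted p = 0.102) and without DMSO replicate 2 (0.066, edgeR adjusted p = 0.311). Both also lost it with library totals alone, with no count filter and with DESeq2.

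SART1, needed to bring the tri-snRNP to the assembling spliceosome, fell 1.36-fold. PRPF31, a U4/U6 protein whose gene is mutated in inherited retinal dystrophy, fell 1.29-fold, and other genes cover 32.0% of its exons. PRPF38A, a factor of spliceosome activation, fell 1.16-fold. The falls of both lay within reach of the scaling, at −0.093 for PRPF31 (edgeR adjusted p = 0.236) and 0.057 for PRPF38A (edgeR adjusted p = 0.297) under upper-quartile scaling. PRPF38B, a relative of PRPF38A, had 167 and 172 CPM with MZ1 and 165 and 157 CPM with DMSO (0.074 ± 0.047, edgeR adjusted p = 0.15). It was called higher under upper-quartile scaling (0.35, edgeR adjusted p = 6.34e-07), the stricter filter (0.23, edgeR adjusted p = 8.03e-05) and DESeq2 size factors (0.10, edgeR adjusted p = 0.0475). SNRNP27 had 17.3 and 18.4 CPM with MZ1 and 17.7 in both DMSO libraries (0.0079 ± 0.11, edgeR adjusted p = 0.951). Its interval, −0.22 to 0.23, still allows a modest change in either direction, and under upper-quartile scaling it was 0.28 and called higher (edgeR adjusted p = 0.0272).

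The minor spliceosome had 3 members, all proteins of U11/U12, and they did not move as one. SNRNP25 (chr16:53010-57669) had 24.5 and 26.6 CPM with MZ1, against 60.4 and 63.0 CPM with DMSO (−1.27 ± 0.08, edgeR adjusted p = 6.9e-14). SNRNP35 had 7.07 and 6.72 CPM with MZ1 and 16.5 and 14.9 CPM with DMSO (−1.19 ± 0.15, edgeR adjusted p = 5.94e-08), and other genes, RILPL1 among them, cover 40.1% of its exons. SNRNP48 had 59.8 and 57.8 CPM with MZ1 and 46.4 and 46.3 CPM with DMSO (0.34 ± 0.07, edgeR adjusted p = 4.55e-05). SNRNP48 contacts the 5′ splice site of minor introns, and it was the most abundant of the 3 per kilobase with MZ1, against SNRNP25 with DMSO.

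In the PRP19 and catalytic-step group, 5 of 8 genes fell and 1 rose, or 62.5% and 12.5%, beside 48.8% and 38.5% of tested coding genes. Under upper-quartile scaling 5 fell and 3 rose. The summed level of the group was 2.24-fold lower. PRPF19 accounted for most of that difference. It encodes the ubiquitin ligase at the centre of its complex (chr11:60890730-60906588, minus strand) and had 87.0 and 81.4 CPM with MZ1, against 289.6 and 296 CPM with DMSO (−1.80 ± 0.05, edgeR adjusted p = 5e-21). CWC27, a cyclophilin of the activated spliceosome, had 6.01 and 7.37 CPM with MZ1 and 26.0 and 26.6 CPM with DMSO (−1.97 ± 0.13, edgeR adjusted p = 6.18e-13). CWC22, which delivers EIF4A3 for the exon junction complex, had 9.90 and 10.1 CPM with MZ1 and 33.9 and 29.0 CPM with DMSO (−1.65 ± 0.12, edgeR adjusted p = 2.23e-12). These 3 genes were each more than 3-fold lower. BUD13, of the retention and splicing complex first described in yeast, fell 2.68-fold, and CWC15 fell 1.40-fold.

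The remaining catalytic-step genes moved little. CWC25, a factor of the first step, had 47.2 and 45.6 CPM with MZ1, against 37.6 and 38.7 CPM with DMSO (0.28 ± 0.07, edgeR adjusted p = 0.00117), a call lost with DESeq2. BUD31 had 25.4 and 25.9 CPM with MZ1 and 26.1 and 24.3 CPM with DMSO (0.025 ± 0.097, edgeR adjusted p = 0.812). PRPF18, a second-step factor, had 6.51 and 6.65 CPM with MZ1 and 6.11 and 4.78 CPM with DMSO (0.27 ± 0.20, edgeR adjusted p = 0.201). Exonic overlap with other genes was 46.7% for BUD31 and 48.5% for PRPF18, so their reads may not be theirs alone. Both were called higher under upper-quartile scaling.

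Levels per kilobase of exon changed order between treatments. With MZ1, SNRNP70 led at 114 CPM per kb, before SNRPD2 at 99.9 and SF3B1 at 81.0. With DMSO, SNRPB led at 181 CPM per kb, before SNRPD2 at 142 and SNRPE at 138. With DMSO, SNRPD2 and SNRPE differed by less than the sum of their SDs, while the gaps between the other neighbours named were wider than their SDs. SNRPD1 stood at 5.57 CPM per kb with MZ1 (rank 48) and 32.9 with DMSO (rank 28). LSM8 stood at 18.5 CPM per kb with MZ1 (rank 29) and 8.09 with DMSO (rank 50). PRPF40B was last of the 60 genes with MZ1 and with DMSO.

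Among the members, those with longer exons in sum had higher log2 fold changes. Across the 60 genes, log2 fold change and exonic length had a Spearman rho of 0.465, against 0.047 across 12639 tested coding genes. This is a correlation across genes that share the same 4 libraries. Tested coding genes were divided by exonic length into 4 equal bins. The bin of the shortest held 27 members, with a median log2 fold change of −1.06, against −0.38 for all its coding genes. The next bin held 15 members with a median of −1.01, against −0.30 for its coding genes. The third held 8 members at −0.018, against −0.12, and the bin of the longest held 10 at 0.040, against −0.064. Gene span including introns gave a rho of 0.129 over the members, against −0.0077 over tested coding genes. The level with DMSO gave one of −0.056 over the members, against −0.307 over tested coding genes. Of 4 equal bins by that level, the highest held 36 members, 27 of them lower, with a median of −0.78. Of its coding genes 62.7% were lower, with a median of −0.50. The next bins down held 14 members at −0.58, against −0.39, and 7 at −1.15, against −0.39. The lowest held 3 at 0.27, against 1.26. The part of level in these falls was not tested. SF3B3, among the longest members, fell 2.78-fold, and SNRPD1, the member that fell most, has 4909 exonic bases, more than any other Sm gene.

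**Figure D4:**
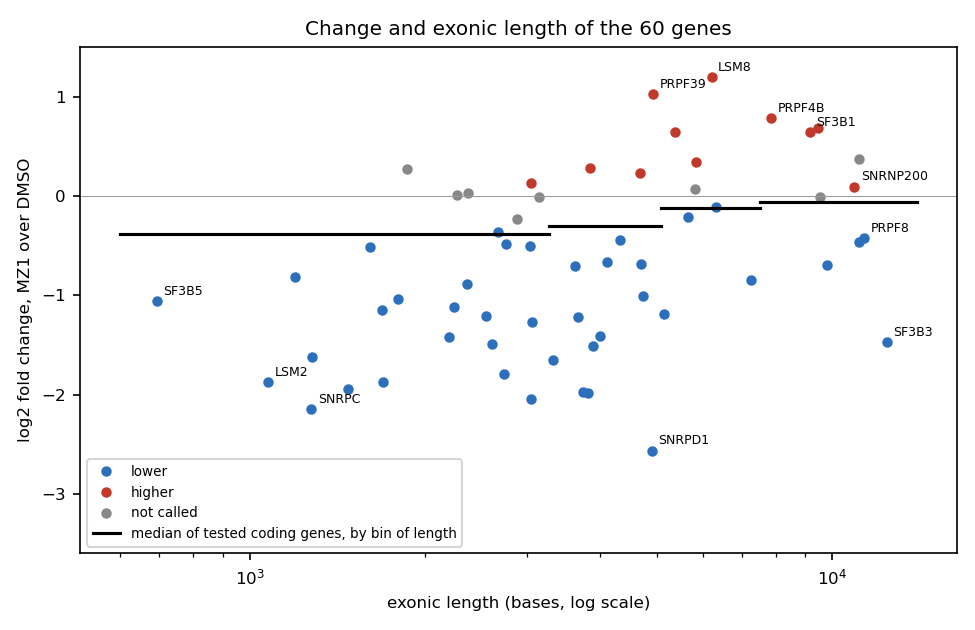
Log2 fold change of MZ1 over DMSO against annotated exonic length in bases (log axis) for the 60 genes, with black lines at the median of tested coding genes in each of 4 bins of length. Members above 0 lie mostly at the right, and SNRPD1 and SF3B3 depart from that.

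The genes that act with these proteins were counted from 6 lists of 95 further splicing genes, of which 60 fell, 29 rose and 6 were not called. That is 63.2% lower and 30.5% higher, beside 48.8% and 38.5% of tested coding genes. Under upper-quartile scaling 48 fell and 35 rose, beside 34.9% lower and 49.2% higher among all tested genes. Under the stricter filter 49 of 94 fell and 31 rose, beside 44.4% lower and 44.6% higher among all tested genes. The genes of Sm ring assembly and snRNA transport all fell, and gave 18 of the 60 falls. This list holds the SMN complex, which loads Sm proteins on snRNA, the methylosome, which methylates them first, and COIL, PHAX, SNUPN and TGS1, which act in snRNA maturation and transport. It gave 18 falls in 18 genes with a median log2 fold change of −1.28. Under upper-quartile scaling 15 of the 18 fell and 0 rose. With DESeq2 and with no count filter 16 fell, with limma-voom 17, and with the stricter filter 15 of 17, and again 0 rose. WDR77, the methylosome partner of PRMT5, averaged 10.4 ± 0.564 CPM with MZ1, against 77.5 ± 1.27 CPM with DMSO (SD, n = 2 each) (−2.89 ± 0.09, edgeR adjusted p = 3.17e-20), and other genes cover 36.5% of its exons. GEMIN4, of the SMN complex, had 19.7 and 18.9 CPM with MZ1 and 125 and 130.5 CPM with DMSO (−2.72 ± 0.07, edgeR adjusted p = 6.56e-22). PRMT5, the methyltransferase itself, had 19.8 and 21.5 CPM with MZ1 and 80.6 and 82.1 CPM with DMSO (−1.98 ± 0.07, edgeR adjusted p = 3.43e-18). SMN1 and SMN2 are near-identical copies whose reads cannot be assigned with certainty, and the MZ1 and DMSO libraries overlapped for SMN1. SMN2 had only 10 and 4 reads with MZ1 and 26 and 13 with DMSO. Both copies are counted among the 18 falls.

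Of 6 ring paralogs and other LSm genes, 4 fell, or 66.7%, beside 48.8% of tested coding genes, and SNRPN and LSM14B were not called. LSM11 and LSM10 take the place of SmD2 and SmD1 in the U7 particle, which trims histone mRNAs. LSM11 had 2.05 and 2.75 CPM with MZ1, against 27.0 and 26.0 CPM with DMSO (−3.46 ± 0.16, edgeR adjusted p = 4.37e-16). LSM10 fell 6.27-fold and LSM12 fell 2.25-fold, while SNRPN, the SmN gene, was at 3.89 and 3.47 CPM with MZ1 and 4.58 and 3.89 CPM with DMSO. In the exon junction complex, MAGOHB fell 3.99-fold, MAGOH fell 2.40-fold and CASC3 fell by 0.59 on the log2 scale, and EIF4A3, the RNA-binding anchor, rose 1.75-fold. The 11 helicases divided into 7 falls and 4 rises, or 63.6% and 36.4%, beside 48.8% and 38.5% of tested coding genes. Their median log2 fold change was −0.25, near the −0.20 of tested coding genes. Under upper-quartile scaling 5 fell and 4 rose, with a median of 0.022, and under the stricter filter 5 fell and 4 rose. DDX39B, an early-acting helicase that also serves mRNA export, rose 3.18-fold to 507 ± 18.8 CPM with MZ1, against 159.6 ± 7.20 CPM with DMSO (SD, n = 2 each), and other genes cover 30.8% of its exons. AQR rose 2.18-fold and DHX38 rose by 0.32 on the log2 scale, whereas DHX16, DDX41 and DHX15 fell 2.04-fold, 1.74-fold and 1.40-fold.

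The other proteins of U2, U5, the tri-snRNP and the minor spliceosome gave 16 falls and 11 rises in 29 genes, or 55.2% and 37.9%. Tested coding genes had 48.8% and 38.5%, so these counts by themselves do not set the list apart. Under upper-quartile scaling 12 fell and 14 rose, and under the stricter filter 12 fell and 12 rose, so the majority direction of this list rests on the scaling. SUGP1, a U2-associated protein that works with SF3B1, had 225 and 214 CPM with MZ1, against 39.6 and 36.9 CPM with DMSO (2.52 ± 0.06, edgeR adjusted p = 8.6e-23). LUC7L, related to a yeast U1 protein, rose 2.96-fold, and PDCD7, of the U11/U12 particle, rose 2.47-fold. PUF60, a relative of U2AF2, fell 3.67-fold, the U5 GTPase EFTUD2 2.60-fold and SNU13, which binds U4 RNA, 2.21-fold. The other PRP19 and catalytic-step genes were close to even, with 11 falls and 13 rises in 26. PPIL1, a cyclophilin of the activated spliceosome, had 1.98 and 1.95 CPM with MZ1, against 50.8 and 55.1 CPM with DMSO (−4.75 ± 0.14, edgeR adjusted p = 2.02e-20). CTNNBL1 and WBP11 fell 2.33-fold and 2.14-fold. SLU7, which sets the 3′ splice site in the second step, rose 2.31-fold, NOSIP 2.14-fold and SYF2 1.83-fold.

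**Figure D5:**
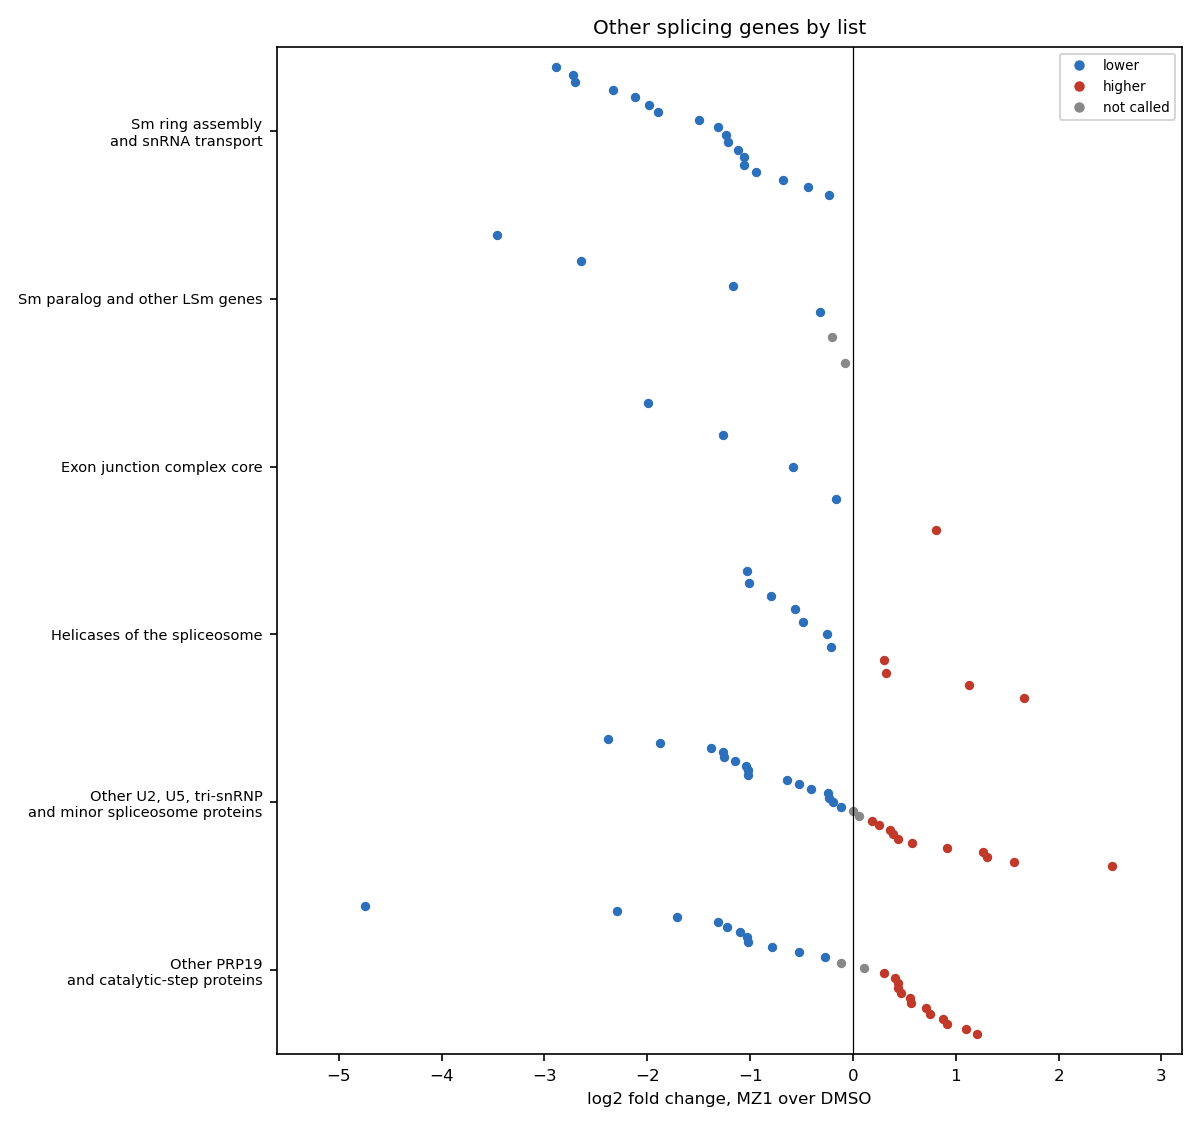
Log2 fold change of MZ1 over DMSO for the 95 further splicing genes, 1 point per gene and 1 band per list, with falls in blue, rises in red and genes not called in grey. All 18 genes of Sm ring assembly and snRNA transport lie left of 0, while the other PRP19 and catalytic-step genes lie on both sides.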

How the data were processed

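Gene counts of 4 RNA-seq libraries of 697 cells were analysed, 2 with MZ1 and 2 with DMSO, grouped by title and treatment label. The deposited values are raw counts of reads per Ensembl gene ID, as whole numbers, per the file headers. TRIzol and the Illumina TruSeq RNA kit are named per the labels' protocols, and HISAT2 2.2.0 and the build hg38 per the submitters' processing notes. How reads were counted (program, annotation, strand) is not given in the sources used here, and reads of overlapping genes cannot be told apart. All 28814 IDs were found in GENCODE 29 (GRCh38), which gave positions, exonic lengths and types, and the gene name table gave 22779 of them a symbol.

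Counts were fitted in R 4.3.3 with edgeR 4.0.16 (filterByExpr, minimum count 10, TMM, glmQLFit and glmQLFTest, treatment only, Benjamini-Hochberg over 16862 genes, adjusted p below 0.05). Standard errors were taken as the unshrunk coefficient over the root of F, and intervals are 1.96 SE either side. Levels are TMM-scaled CPM. Exonic length joins all annotated exons of a gene over all its transcripts, used or not. Ratios and ranks per kilobase between genes therefore depend on the annotation. Alternatives were DESeq2 1.42.0, limma-voom 3.58.1, other scalings and filters, a replicate block, leaving out overlapping genes and leaving out each library. The fit was tested on simulated data, in which few genes were changed. It called 43.8% of genes changed 1.25-fold, 46.9% at 1.5-fold, 70.8% at 2-fold and 93.8% at 4-fold, with 2 false calls. Small changes can thus be missed, but far more genes were called in these data, so the shares may not carry over.

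Replicates differed by more than sampling noise (chi-square per degree of freedom 2.17 for MZ1 and 2.44 for DMSO). No label says that replicates are separate cultures: the p-values reflect only how these libraries vary, which may be technical. A two-sided exact permutation test of 2 against 2 libraries cannot go below 0.333. Named were the members, 1 of which is not reported here, with full statistics for up to 3 members per group and direction by adjusted p, for those not called and for those called against their group's majority, and up to 3 genes per further list and direction. The members and lists were chosen with earlier results of these data known.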

Additional observations from a re-analysis of the deposited data

How the results depend on the processing

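Results were recomputed under 13 planned settings, and under 1 more, U2AF1 and U2AF1L5 summed, that was chosen after seeing the data. The 41 members called lower were 37 to 42 throughout, and 44 of the 59 members reported kept direction and call under every planned setting. The 11 called higher were 18 with upper-quartile scaling and 7 with DESeq2, and 8 to 11 when each library was left out in turn. The median log2 fold change of −0.69 was −0.42 with upper-quartile scaling, −0.54 with a stricter count filter, −0.77 with library totals alone, −0.77 with no count filter, −0.73 with DESeq2, −0.76 without members of shared exons or near-identical copies, and −0.743 to −0.708 with each library left out. The replicate block gave 11 higher, 40 lower and a median of −0.69. It ended the call of SF3A1 (edgeR adjusted p = 0.0587), and since deviations of same-numbered libraries had a correlation of 0.014, the numbers were not taken as pairs.

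Of 8 members whose direction turned, SF3A1 and PRPF38A had been called. SF3A1 turned under upper-quartile scaling and the stricter filter, and PRPF38A under upper-quartile scaling. Both settings raised the log2 fold changes of the genes tested with and without them. Upper-quartile scaling gave PRPF38A 0.057, SF3A1 0.16, SF3A2 0.26 and U2AF1L4 0.042. The stricter filter gave SF3A1 0.050 and SF3A2 0.15, and DESeq2 size factors gave SF3A2 0.017. Library totals alone gave BUD31 −0.051, PRPF38B −0.0026 and SNRNP27 −0.0686, no count filter gave BUD31 −0.052, PRPF38B −0.0030 and SNRNP27 −0.0690, and DESeq2 gave BUD31 −0.017 and SNRNP27 −0.034. U2AF1L5 was −0.18 with limma-voom. With each library left out, the values spanned −0.064 to 0.046 for BUD31, −0.00092 to 0.10 for PRPF38B, −0.13 to 0.046 for SF3A2, −0.038 to 0.059 for SNRNP27 and −1.56 to 1.16 for U2AF1L5. For the others the cause was not tested. Depth limits members of low level such as U2AF1L4, PRPF18 and PRPF40B, whose standard errors were 0.30, 0.20 and 0.21 on the log2 scale.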

Other observations

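Many members start next to another gene. Of the 60 genes, 21 (35.0%) have a tested coding gene that starts within 1000 bases and is read the other way, against 16.1% of 12639 tested coding genes. In 8 of these pairs both genes fell, in 6 the member fell and its neighbour rose, and in 1 the member rose and its neighbour fell. In the rest 1 gene of the pair was not called. Such pairs were not counted over all tested coding genes, of which 48.8% were lower and 38.5% higher. The split is therefore a description of these pairs and not a trait of the members. LSM3 fell by 1.98 on the log2 scale while XPC, a DNA repair gene read from the other side, rose by 1.46 ± 0.06 (SE, edgeR adjusted p = 3.06e-17). LSM7 fell by 1.87 while its neighbour SPPL2B rose by 1.47 ± 0.05 (edgeR adjusted p = 2.81e-19). PRPF40B, which rose by 0.68, stands beside MCRS1, which fell by 2.19 ± 0.08 (edgeR adjusted p = 2.5e-18). CWC27 and SREK1IP1, its neighbour, both fell (SREK1IP1 by a log2 fold change of −1.70 ± 0.12, edgeR adjusted p = 1.15e-12). The pairs were described after their values were seen, and where the annotated exons overlap, reads of the 2 genes cannot be told apart.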
